A study of Mus musculus with 6 samples.

Results

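The subject is 10 genes of the mitochondrial DNA that encode core subunits of the respiratory chain and of ATP synthase, followed through 6 RNA-seq libraries of A375 cells. They were chosen by Ensembl identifier from a table of 62492 gene identifiers, and all 10 were found there. They are MT-ND1 (ENSG00000198888), MT-ND2 (ENSG00000198763), MT-ND3 (ENSG00000198840), MT-ND4 (ENSG00000198886) and MT-ND5 (ENSG00000198786) of complex I, MT-CYB (ENSG00000198727) of complex III, MT-CO1 (ENSG00000198804), MT-CO2 (ENSG00000198712) and MT-CO3 (ENSG00000198938) of complex IV, and MT-ATP6 (ENSG00000198899) of ATP synthase. The table gives identifiers without symbols, and the reference tables used here, which are for mouse, hold 0 of the 10 identifiers, so the pairing of symbols and identifiers was taken from the member list and was not checked. Levels are in FPKM, fragments scaled by gene length and by library size. All 10 genes passed the filter, an average of 1 FPKM or more over the libraries, which 12578 genes passed in all.

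Complex I (NADH dehydrogenase) passes electrons from NADH to ubiquinone, complex III (of which cytochrome b is the mitochondrially encoded part) passes them on to cytochrome c, and complex IV (cytochrome c oxidase) passes them to oxygen. The proton gradient built on the way drives ATP synthase. Mitochondrial DNA is copied into long transcripts spanning many genes, which are cut mostly at the tRNAs lying between the coding sequences, so these mRNAs start from shared precursors and their separate levels also reflect processing and decay. The remaining subunits of these complexes are made from nuclear genes and imported.

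A375 is an established human melanoma line. All 6 libraries, controls included, came from cells given a lentivirus with Cas9 and a guide RNA, kept under puromycin at 10 µg/mL and taken for RNA 7 days after selection. They were labelled as guides against YAE1 (2 libraries), against ABCE1 (2 libraries), and control guides against LacZ or Luciferase (2 libraries). ABCE1 is an ATPase that splits ribosomes after termination and carries iron-sulfur clusters, and YAE1 helps, together with LTO1, to load a cluster onto it. The title of the series links this complex to nonsense-mediated decay and to MHC class I in tumour cells; no statement in the labels names the mitochondrial genes as a question. The genotype label of the second library of each knockout group names the gene with a final 2 (Abce2, Yae2), and the groups follow the titles. Neither the separateness of the cultures nor the guide in each library is given, nor whether the cells were clones or mixed populations, so p-values measure the spread between these libraries alone, which may be technical. The targeted genes and melanocyte markers were not analysed here, for want of symbols, so neither the knockouts nor the cell type were checked.

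Library totals worked out from the FPKM steps were 33630777 and 34131478 counted reads with YAE1 guides, 31426022 and 35375988 with ABCE1 guides and 36799435 and 35229012 with control guides. Whether a pair counted as 1 or 2 reads could not be told. A single one of the 10 genes had between 15461 and 285337 reads in a library, a counting error of 0.804% to 0.187%, which covers counting only. The step sizes also gave the lengths of the gene models, from 346 bases for MT-ND3 to 1812 bases for MT-ND5, each up to a common factor. Mitochondrial genes have near-identical partial copies in nuclear DNA, and MT-ATP6 and MT-ND4 each overlap a neighbouring coding sequence at an end. Both strands of mitochondrial DNA are copied, too. How the authors' counting treated shared or opposite-strand reads is not stated in the labels, and its part in the values was not tested.

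The 10 genes were among the most abundant in the cells. By mean FPKM over the 6 libraries all 10 stood among the first 17 identifiers, MT-CO1 first and MT-ND1 in place 17. The order among them was led by complex IV. The YAE1 libraries had, in falling order, MT-CO1 (5455 ± 47.6 FPKM), MT-CO3 (5154 ± 209), MT-CO2 (4057 ± 124), MT-ATP6 (3306 ± 165), MT-ND4 (3127 ± 109), MT-ND2 (2103 ± 104), MT-CYB (1880.0 ± 14.6), MT-ND3 (1832 ± 92.6), MT-ND5 (1814 ± 77.0) and MT-ND1 (1313 ± 92.3; SD, n = 2 each). There the values of MT-ATP6 and MT-ND4 overlapped between libraries, as did those of MT-CYB, MT-ND3 and MT-ND5 with their neighbour in the order. With ABCE1 guides MT-CO1 was again first, at 4499 ± 42.8 FPKM, ahead of MT-CO3 at 3788 ± 5.16 FPKM, and MT-ND1 was last at 1153 ± 19.9 FPKM (SD, n = 2 each), while MT-ND2 and MT-CYB, and MT-ND3 and MT-ND5, overlapped with each other. With control guides the first places were the other way round, MT-CO3 at 4103 ± 5.88 FPKM and MT-CO1 at 3509 ± 67.5 FPKM, and MT-CYB (1361 ± 86.2 FPKM) and MT-ND1 (1289 ± 42.9 FPKM) shared the last places with overlapping values (SD, n = 2 each). The spread from highest to lowest gene within a library was 3.98-fold and 4.35-fold with YAE1 guides, 3.83-fold and 3.98-fold with ABCE1 guides and 3.26-fold and 3.11-fold with control guides.

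**Figure D1:**
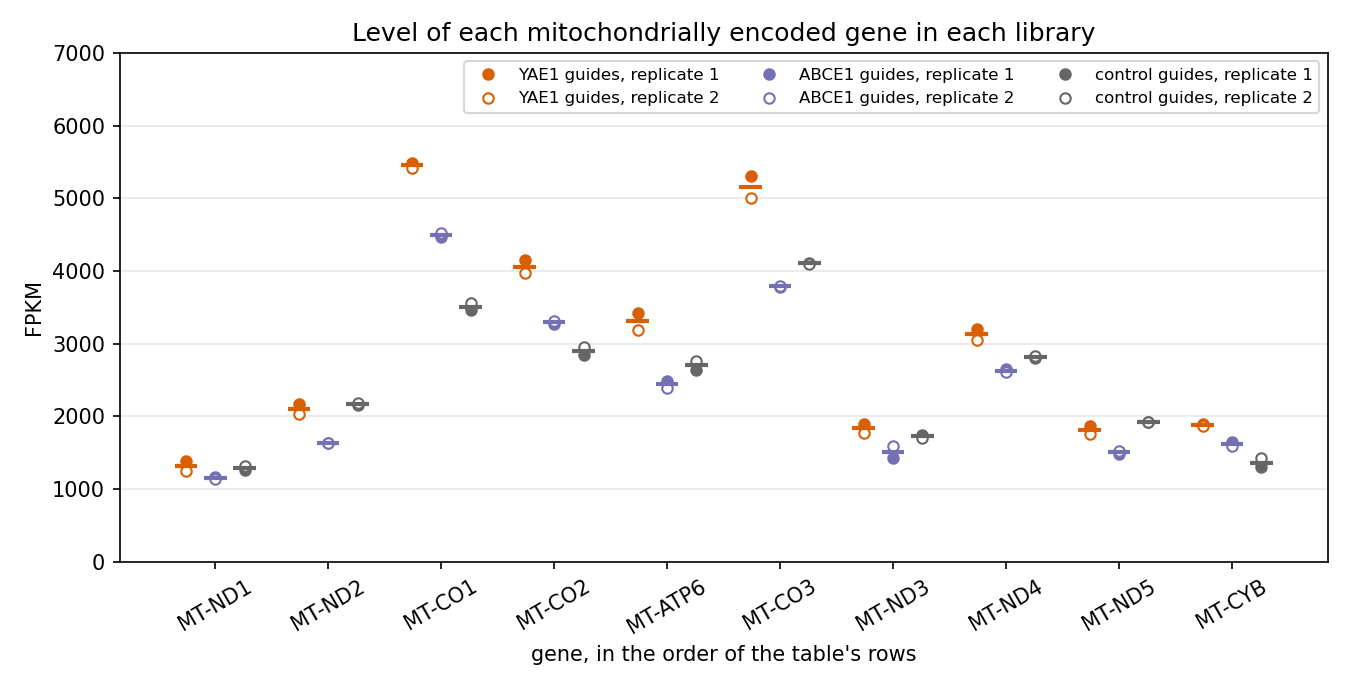
FPKM (linear axis from 0) of each of the 10 genes in each library; filled and open points are replicates 1 and 2, bars are group means, with YAE1, ABCE1 and control guides side by side. MT-CO1 stands at 5489 and 5421 FPKM with YAE1 guides, 4469 and 4529 FPKM with ABCE1 guides, and 3462 and 3557 FPKM with control guides, with no overlap between groups.

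Together the 10 genes took up more of the YAE1 libraries than of the others. They summed to 30774 and 29309 FPKM with YAE1 guides, 24019 and 24110.0 FPKM with ABCE1 guides, and 24237 and 24761 FPKM with control guides. Both YAE1 sums lay above all 4 other libraries, while the ABCE1 sums lay just below the control sums. The share of counted reads was 3.20% and 3.06% with YAE1 guides (exact 95% intervals 3.19% to 3.20% and 3.06% to 3.07%, counting error only), 2.53% and 2.54% with ABCE1 guides, and 2.52% and 2.57% with control guides. The mean sum with YAE1 guides was 1.23 times that with control guides and 1.25 times that with ABCE1 guides, and the ABCE1 mean was 0.982 times the control mean. The sums themselves were not tested; a two-sided exact permutation test of 2 libraries against 2 cannot go below p = 0.33. These are bulk RNA values scaled to the library total, so more mitochondria per cell, more transcripts per mitochondrion and less of other RNA cannot be told apart.

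With YAE1 guides against control guides, 6 of the 10 genes rose and 4 did not pass the test (limma on log2(FPKM + 1), adjusted p under 0.05), where 34.2% of all tested genes rose and 17.6% fell. Those that rose were all 3 complex IV genes, MT-CYB, MT-ATP6 and, of complex I, MT-ND4. By limma on the deposited scale 0 of the 10 genes fell, and 0 were lower at an unadjusted p under 0.05. With other scalings MT-ND5 fell, by limma after centring on the median gene (-0.18, adjusted p = 0.026), quantile normalization (-0.23, adjusted p = 0.0035) or scaling to genes other than the 10 (-0.11, adjusted p = 0.025), and by voom with TMM factors (-0.20), where MT-ND2 (-0.16) fell too. Both YAE1 libraries lay above both control libraries for 7 genes and below them for 1, MT-ND5, beside 49.8% and 27.9% of all tested genes. The median log2 change of the 10 was 0.22, beside 0.10 over all tested genes.

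MT-CO1, the catalytic subunit that holds the oxygen-binding centre of complex IV, had 5489 and 5421 FPKM in YAE1 libraries, against 3462 and 3557 FPKM in control libraries. These groups lay far apart, and the log2 change of 0.64 ± 0.04 (SE, limma adjusted p = 7.7e-05) was the largest of the 10. MT-CO2, the subunit that takes electrons from cytochrome c, had 4145 and 3969.5 FPKM in YAE1 libraries, against 2838 and 2954 FPKM in control libraries (log2 change 0.49 ± 0.04, limma adjusted p = 0.00028). The third core subunit, MT-CO3, had 5302 and 5006 FPKM in YAE1 libraries, against 4108 and 4099 FPKM in control libraries (log2 change 0.33 ± 0.04, limma adjusted p = 0.0013, but -0.19 under quantile normalization, which compares the ranks of such abundant genes). All 3 were thus above control in both libraries on the deposited scale, MT-CO1 most. Quantile normalization gave 0.19 for MT-CO1, left MT-CO2 at 0.12 without a call (limma adjusted p = 0.19) and called MT-CO3 lower (limma adjusted p = 0.00012). MT-CYB, which holds the b hemes and the ubiquinone sites of complex III, had 1890.3 and 1869.7 FPKM in YAE1 libraries, against 1299.7 and 1422 FPKM in control libraries (log2 change 0.47 ± 0.05, limma adjusted p = 0.00062). MT-ATP6, part of the proton channel of ATP synthase, had 3423 and 3189 FPKM in YAE1 libraries, against 2642 and 2759 FPKM in control libraries (log2 change 0.29 ± 0.05, limma adjusted p = 0.0041).

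Complex I behaved otherwise. MT-ND4, a membrane subunit of its proton-pumping arm, rose a little, with 3204 and 3049.6 FPKM in YAE1 libraries, against 2802 and 2835 FPKM in control libraries (log2 change 0.15 ± 0.04, limma adjusted p = 0.025, and -0.029 under quantile normalization). MT-ND5 had 1868 and 1759 FPKM in YAE1 libraries, against 1924 and 1923 FPKM in control libraries. MT-ND3 had 1898 and 1767 FPKM in YAE1 libraries, against 1745 and 1708 FPKM in control libraries. The 4 complex I genes other than MT-ND4 thus lay close to control, with log2 changes from -0.09 ± 0.04 for MT-ND5 (95% interval -0.19 to 0.02, limma adjusted p = 0.15) to 0.09 ± 0.06 for MT-ND3 (-0.07 to 0.24, limma adjusted p = 0.30). MT-ND1 (0.02 ± 0.06, interval -0.11 to 0.16) and MT-ND2 (-0.05 ± 0.05, interval -0.16 to 0.06) lay between them, and their values overlapped between the groups. The call of MT-ND4 was lost without either control or either ABCE1 library (limma adjusted p = 0.070 to 0.15) and with each library centred on its median gene (log2 change 0.05, limma adjusted p = 0.44; 3014 of all tested genes then rose and 3124 fell, against 4303 and 2214 before), while the other 5 calls held in each of these fits. With no filter on low genes the calls of MT-ND4, MT-CO3 and MT-ATP6 were lost. MT-ND4 also did not pass by voom with TMM factors (log2 change 0.04, voom adjusted p = 0.38). Nor did it pass with the compared libraries alone (limma adjusted p = 0.070). All 10 genes were higher in YAE1 replicate 1 than in replicate 2 (log2 ratio 0.02 to 0.14), and without replicate 1 the changes of MT-ND2 (-0.10, limma adjusted p = 0.039) and MT-ND5 (-0.13, limma adjusted p = 0.021) passed as falls.

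With ABCE1 guides against the same control libraries, 3 of the 10 genes rose, 5 fell and 2 did not pass, where 37.5% of all tested genes rose and 20.4% fell (limma, adjusted p under 0.05). Both ABCE1 libraries lay above both control libraries for 3 genes and below them for 7, beside 50.6% and 30.9% of all tested genes. The median log2 change of the 10 was -0.13, beside 0.10 over all tested genes. Complex IV was split, since MT-CO1 and MT-CO2 rose and MT-CO3 did not pass, MT-CYB rose, and 4 of the 5 complex I genes fell together with MT-ATP6.

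MT-CO1 had 4469 and 4529 FPKM in ABCE1 libraries, against 3462 and 3557 FPKM in control libraries (log2 change 0.36 ± 0.04, SE, limma adjusted p = 0.00043). MT-CO2 had 3269 and 3313 FPKM, against 2838 and 2954 FPKM with control guides (log2 change 0.18 ± 0.04, limma adjusted p = 0.011). MT-CYB had 1648 and 1594 FPKM, against 1299.7 and 1422 FPKM with control guides (log2 change 0.25 ± 0.05, limma adjusted p = 0.0059). In each of these 3 both ABCE1 libraries lay above both control libraries. MT-CO3 was a little lower, with 3785 and 3792 FPKM in ABCE1 libraries, against 4108 and 4099 FPKM in control libraries, and did not pass (log2 change -0.12 ± 0.04, 95% interval -0.22 to -0.01, limma adjusted p = 0.063). MT-ATP6, with 2492 and 2387 FPKM in ABCE1 libraries, against 2642 and 2759 FPKM in control libraries, only just passed (log2 change -0.15 ± 0.05, limma adjusted p = 0.049).

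The largest falls were in 2 proton-pumping membrane subunits of complex I. MT-ND2 had 1633 and 1638 FPKM in ABCE1 libraries, against 2159 and 2185 FPKM in control libraries (log2 change -0.41 ± 0.05, limma adjusted p = 0.00043). MT-ND5 had 1486 and 1520.4 FPKM in ABCE1 libraries, against 1924 and 1923 FPKM in control libraries (log2 change -0.36 ± 0.04, limma adjusted p = 0.00066). Replicates of both genes lay close together and far from the other group. MT-ND3, a small subunit near the ubiquinone site, had 1422 and 1587 FPKM in ABCE1 libraries, against 1745 and 1708 FPKM in control libraries (log2 change -0.20 ± 0.06, limma adjusted p = 0.033). MT-ND1, which forms part of the ubiquinone channel, had 1167 and 1139 FPKM in ABCE1 libraries, against 1259 and 1319.5 FPKM in control libraries (log2 change -0.16 ± 0.06, limma adjusted p = 0.048, but 0.086 under quantile normalization). MT-ND4, with 2649 and 2611 FPKM in ABCE1 libraries, against 2802 and 2835 FPKM in control libraries, did not pass (log2 change -0.10 ± 0.04, limma adjusted p = 0.085).

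In the ABCE1 comparison the calls of MT-CO1, MT-ND2 and MT-ND5 held with each of the 6 libraries left out, while those of MT-ND1 and MT-ATP6 were lost without any 1 of the 4 control and ABCE1 libraries, that of MT-ND3 without either control library or ABCE1 replicate 1, that of MT-CO2 without control replicate 1 or either ABCE1 library, and that of MT-CYB without control replicate 1 or ABCE1 replicate 1. Centring each library on its median gene, which moved the median over all genes by -0.14 on the log2 scale and turned the whole-transcriptome calls to 3271 higher and 3915 lower (4715 and 2563 before), left MT-CO1 as the 1 gene that rose (0.22, limma adjusted p = 0.0083), gave MT-CYB 0.12 and MT-CO2 0.05 without passing, and put the other 7 lower. After quantile normalization MT-CO2 (0.12), MT-ND3 (-0.12) and MT-ATP6 (-0.063) did not pass. MT-ND1 then passed as higher (0.086, limma adjusted p = 0.0051) and MT-CO3 as lower (-0.19, limma adjusted p = 8.2e-05). With no filter MT-ND2 and MT-ND5 were the 2 genes that passed. By voom with TMM factors MT-CO2 did not pass (0.059, voom adjusted p = 0.21), while MT-ND4 (-0.23) and MT-CO3 (-0.24) passed as lower. Both comparisons used the same 2 control libraries, so their changes are not independent of each other.

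**Figure D2:**
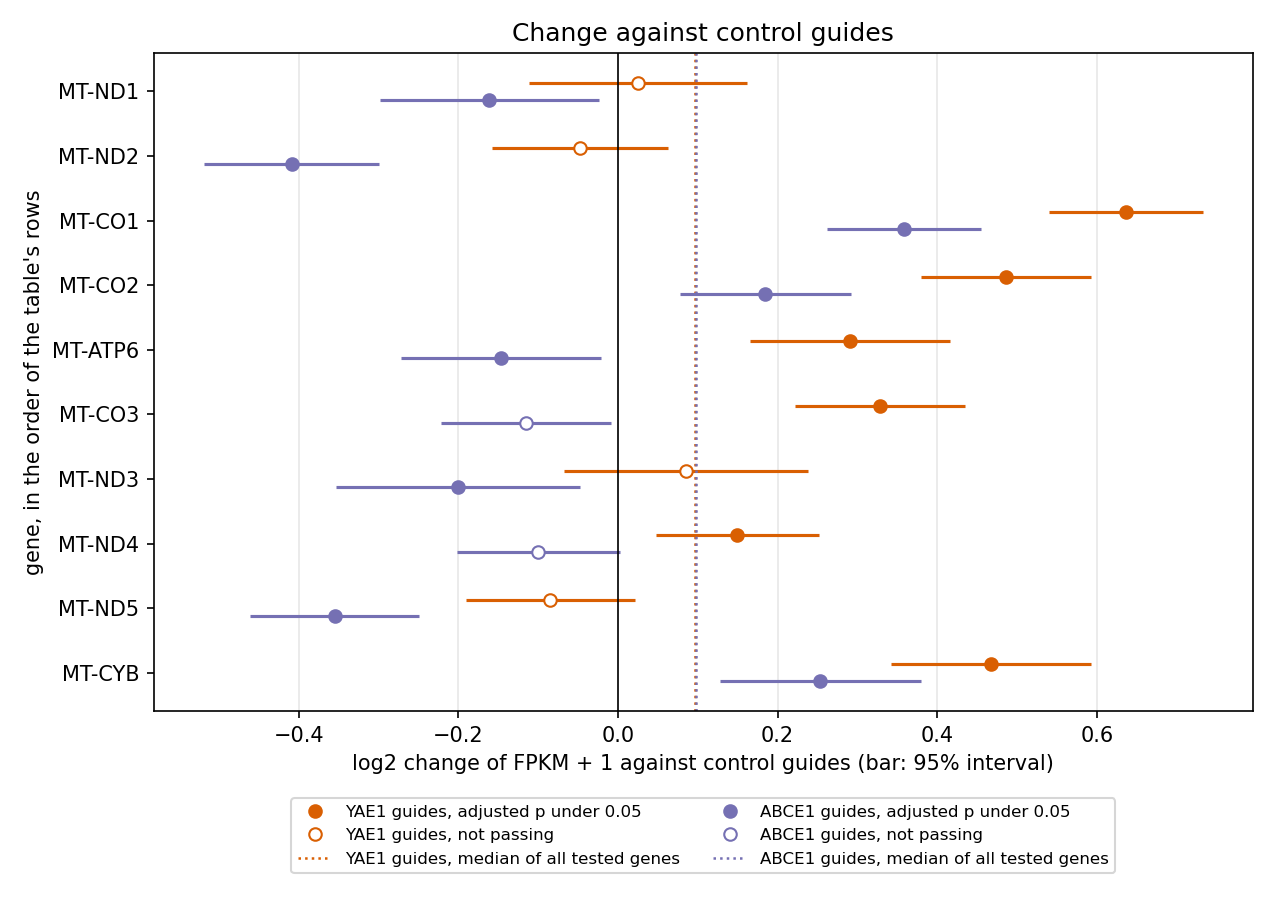
Log2 change of FPKM + 1 against control guides for each gene (points; bars are 95% intervals), with YAE1 guides above ABCE1 guides in each pair, filled where the adjusted p was under 0.05; dotted lines mark the medians of all tested genes, which nearly coincide at 0.10. MT-CO1, MT-CO2 and MT-CYB lie to the right of 0 with both guides, and MT-ND2 and MT-ND5 lie farthest to the left, at -0.41 and -0.36 with ABCE1 guides.

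Multiplying a library by a single factor leaves the proportions among the 10 genes unaltered, so the levels were also compared relative to the mean log2 value of the 10 in each library, a comparison chosen after the values had been seen. Such values sum to 0 over the 10 genes, so a gain in some requires a loss in others. Quantile normalization, which is no single factor and puts MT-CO3 below control with YAE1 guides, was not run on this relative scale. Relative to that mean, with YAE1 guides against control guides 4 genes rose, 5 fell and 1 did not pass, and with ABCE1 guides against control guides 3 rose, 4 fell and 3 did not pass (limma, adjusted p under 0.05). On this scale 14.0% of all tested genes rose and 37.3% fell with YAE1 guides, and 42.2% rose and 15.7% fell with ABCE1 guides.

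MT-CO1 gained most, with a relative log2 change of 0.40 ± 0.02 with YAE1 guides (SE, limma adjusted p = 3.4e-05) and 0.43 ± 0.02 with ABCE1 guides (limma adjusted p = 2.2e-05). MT-CO2 gained 0.25 ± 0.02 in both comparisons (limma adjusted p = 0.00011 with YAE1 and 7.9e-05 with ABCE1 guides), and MT-CYB 0.23 ± 0.04 with YAE1 guides (limma adjusted p = 0.0026) and 0.32 ± 0.04 with ABCE1 guides (limma adjusted p = 0.00046). All 5 losses with YAE1 guides and 3 of the 4 with ABCE1 guides were in complex I, the other being MT-ATP6 with ABCE1 guides (-0.08 ± 0.03, limma adjusted p = 0.0499). With each of the 6 libraries left out in turn, that call of MT-ATP6 held in 1 fit, and with YAE1 guides the relative calls of MT-ND3 held in 2, of MT-ND4 in 3 and of MT-CO3 in 4. MT-ND2 had a relative change of -0.28 ± 0.02 with YAE1 guides (limma adjusted p = 9.7e-05) and -0.34 ± 0.02 with ABCE1 guides (limma adjusted p = 3.4e-05), and MT-ND5 of -0.32 ± 0.02 with YAE1 guides (limma adjusted p = 8.5e-05) and -0.29 ± 0.02 with ABCE1 guides (limma adjusted p = 9.8e-05). The calls of these 5 genes held in both comparisons under all 12 other fits tried for this quantity, including each library left out. MT-ND1 also fell, by 0.21 on the relative log2 scale with YAE1 guides and 0.09 with ABCE1 guides, the second of these lost without any 1 of the 4 control and ABCE1 libraries (limma adjusted p = 0.056 to 0.19).

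The same shift can be read from ratios of FPKM within a library. The ratio of MT-CO1 to MT-ND5 was 2.94 and 3.08 with YAE1 guides, 3.01 and 2.98 with ABCE1 guides, and 1.80 and 1.85 with control guides. For MT-CO1 to MT-ND2 the ratios were 2.52 and 2.67 with YAE1 guides, 2.74 and 2.77 with ABCE1 guides, and 1.60 and 1.63 with control guides. Both knockout groups thus stood clear of the control group in these ratios. These pairs, and the next, set a gene with a relative gain against a gene with a relative loss in the same libraries. Their separation follows from that choice and is no separate evidence for the shift. MT-CYB to MT-ND5 gave 1.01 and 1.06 with YAE1 guides, 1.11 and 1.05 with ABCE1 guides and 0.676 and 0.739 with control guides, so the order of these 2 genes was turned in the knockout libraries. By contrast MT-ATP6 to MT-CO3, direct neighbours on the mitochondrial DNA with no tRNA gene between them, gave 0.646 and 0.637 with YAE1 guides, 0.658 and 0.629 with ABCE1 guides and 0.643 and 0.673 with control guides, and all 3 groups overlapped.

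Summed by complex, the 5 complex I genes held 34.2% and 33.6% of the summed FPKM of the 10 with YAE1 guides, 34.8% and 35.2% with ABCE1 guides, and 40.8% and 40.3% with control guides. Complex IV made up 48.5% and 49.1% with YAE1 guides, 48.0% and 48.3% with ABCE1 guides, and 42.9% in both control libraries. Its 3 genes did not gain alike. By group mean MT-CO1 held 18.2% with YAE1, 18.7% with ABCE1 and 14.3% with control guides. MT-CO2 held 13.5% with YAE1, 13.7% with ABCE1 and 11.8% with control guides. MT-CO3 held 17.2% with YAE1, 15.7% with ABCE1 and 16.8% with control guides. MT-CYB alone held 6.14% and 6.38% with YAE1 guides, 6.86% and 6.61% with ABCE1 guides, and 5.36% and 5.74% with control guides. Among the 10 genes in the table's rows MT-ND2 comes directly before MT-CO1, and MT-ND5 directly before MT-CYB, so some genes with opposite relative changes were neighbours. Other neighbours went the same way, as did MT-CO1 and MT-CO2, which both gained, and MT-ND1 and MT-ND2, which both lost. The part of position was not tested.

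**Figure D3:**
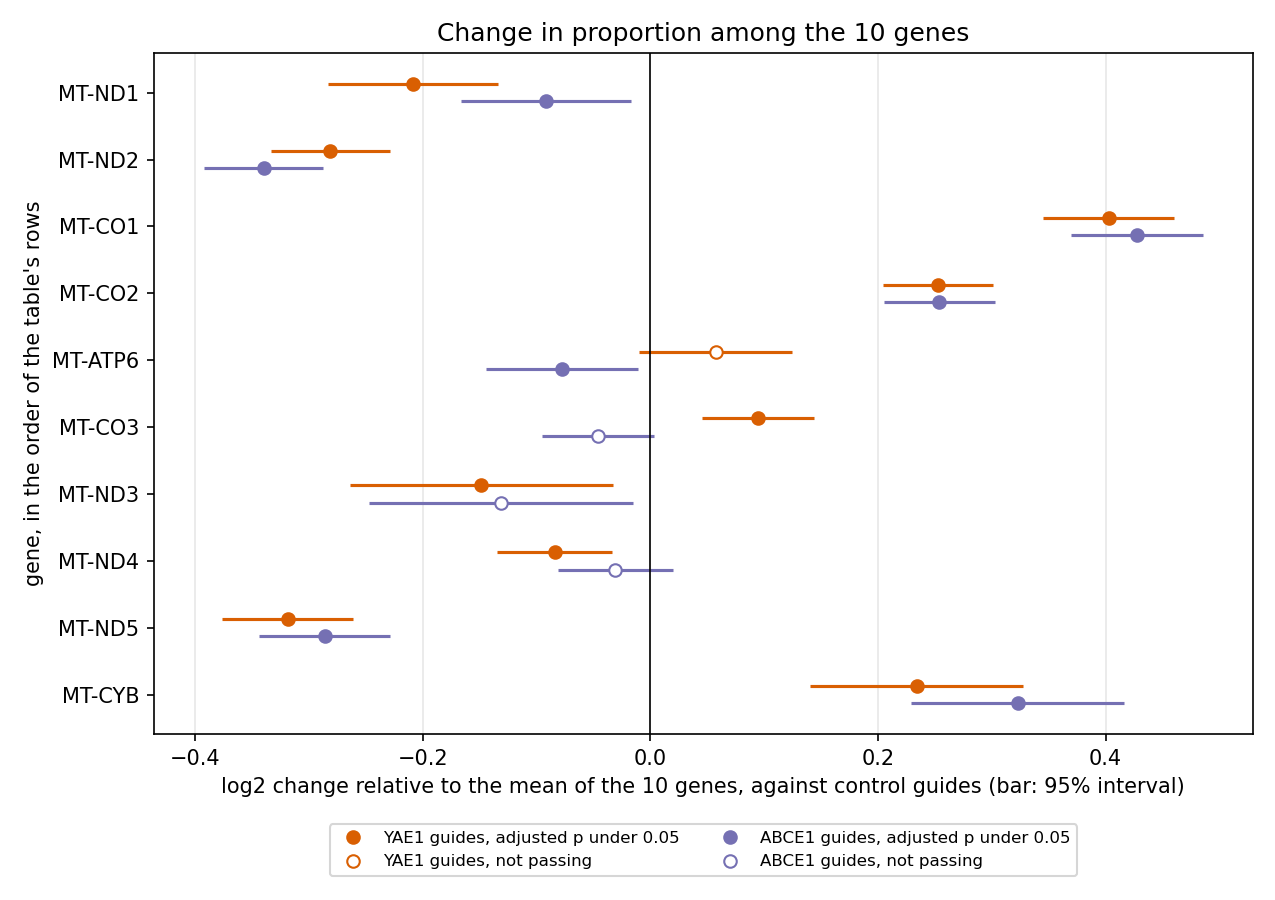
Log2 change of each gene relative to the mean of the 10 genes, against control guides (points; bars are 95% intervals), with YAE1 guides above ABCE1 guides and filled points for an adjusted p under 0.05. MT-CO1, MT-CO2 and MT-CYB lie between 0.23 and 0.43, and MT-ND2 and MT-ND5 between -0.34 and -0.28.

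Setting the knockouts against each other, YAE1 guides gave the higher level for all 10 genes (adjusted p under 0.05 by limma), beside 15.3% of all tested genes, with 18.7% lower. After quantile normalization MT-ND2 and MT-ATP6 were the 2 genes still called higher, MT-ND1 was called lower (-0.086, limma adjusted p = 0.011), MT-ND4 was at -0.059, MT-CYB and the 3 complex IV genes were at 0 and the median was 0. With no filter on low genes, which left the differences as they were but tested 38269 genes, 0 of the 10 passed (limma adjusted p = 0.062 to 0.26). In all 10 genes both YAE1 libraries lay above both ABCE1 libraries, as did 33.4% of all tested genes, with 36.8% the other way round. The median log2 difference was 0.28, beside -0.01 over all tested genes, and the 10 differences ran from 0.19 ± 0.06 for MT-ND1 (SE, limma adjusted p = 0.046) to 0.44 ± 0.04 for MT-CO3 (limma adjusted p = 0.0025). The changes against control of the preceding comparisons are not repeated evidence for this, because the same libraries enter them.

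The widest gaps were in the neighbours MT-CO3 and MT-ATP6. MT-CO3 had 5302 and 5006 FPKM with YAE1 guides, against 3785 and 3792 FPKM with ABCE1 guides. MT-ATP6 had 3423 and 3189 FPKM with YAE1 guides, against 2492 and 2387 FPKM with ABCE1 guides, a gap of 0.44 ± 0.05 on the log2 scale (limma adjusted p = 0.0032). Both genes rose with YAE1 guides against control guides and had mean levels below control with ABCE1 guides, as did MT-ND4. MT-ND2 followed, with 2176 and 2029 FPKM with YAE1 guides, against 1633 and 1638 FPKM with ABCE1 guides, a gap of 0.36 ± 0.05 on the log2 scale (limma adjusted p = 0.0036). The smallest gap was that of MT-ND1, with 1378 and 1247 FPKM with YAE1 guides, against 1167 and 1139 FPKM with ABCE1 guides. The remaining 6 genes differed by 0.21 to 0.30 on the log2 scale (limma adjusted p = 0.0050 to 0.023).

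In proportion to the mean of the 10, the knockouts differed in fewer genes. MT-CO3 (0.14 ± 0.02, SE, limma adjusted p = 0.0013) and MT-ATP6 (0.14 ± 0.03, limma adjusted p = 0.0052) were higher with YAE1 guides, MT-ND1 was lower (-0.12 ± 0.03, limma adjusted p = 0.015; kept in 4 of 6 fits with a library left out), and 7 did not pass, beside 1.65% higher and 63.0% lower among all tested genes on this scale. For MT-CO1 the relative difference was -0.02 with a 95% interval of -0.08 to 0.03, and for MT-CO2 it was -0.0012 with an interval of -0.05 to 0.05. All 10 higher calls held with centring on the median gene (2395 of all tested genes higher and 1882 lower, against 1928 and 2351 before), with scaling to genes other than the 10, and with voom on recovered reads (log2 differences 0.15 to 0.48 over these fits). Without ABCE1 replicate 1 the differences of 4 genes passed (MT-ND2, MT-CO2, MT-CO3 and MT-ATP6), and the 10 differences then ran from 0.20 to 0.47 on the log2 scale.

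**Figure D4:**
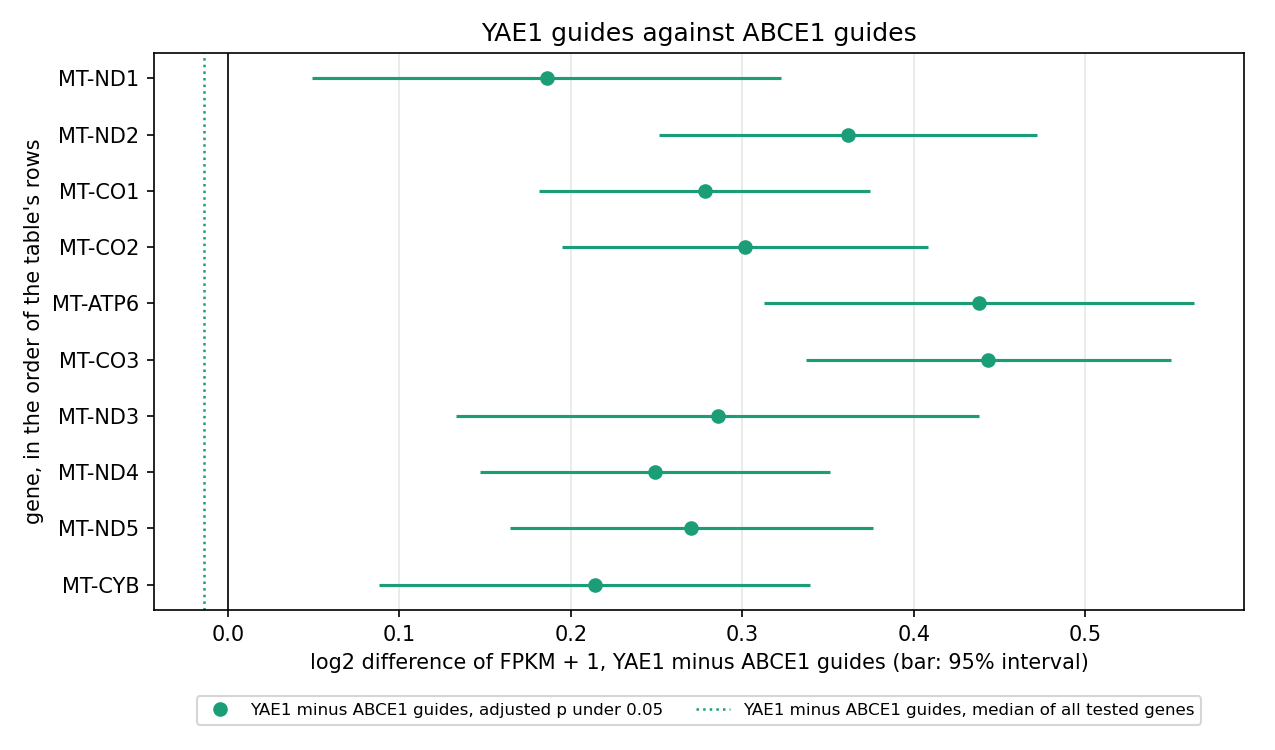
Log2 difference of FPKM + 1, YAE1 guides minus ABCE1 guides, for each gene (points; bars are 95% intervals; all filled, adjusted p under 0.05); the dotted line is the median of all tested genes, -0.01. All 10 points lie to the right of 0, between 0.19 and 0.44, on the deposited scale (quantile normalization puts MT-ND1 and MT-ND4 below 0, and MT-CYB and the 3 complex IV genes at 0).

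Among all 12578 tested genes the changes of the 10 were moderate in size. With YAE1 guides their log2 changes spanned -0.09 to 0.64, where the 10th and 90th percentiles of all tested genes were -0.39 and 0.58. With ABCE1 guides they spanned -0.41 to 0.36, where those percentiles were -0.42 and 0.69. In the YAE1 against ABCE1 comparison they spanned 0.19 to 0.44, beside percentiles of -0.38 and 0.31, so that the lowest of the 10 stood above 78.5% of all tested genes and the highest above 96.4%.

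**Figure D5:**
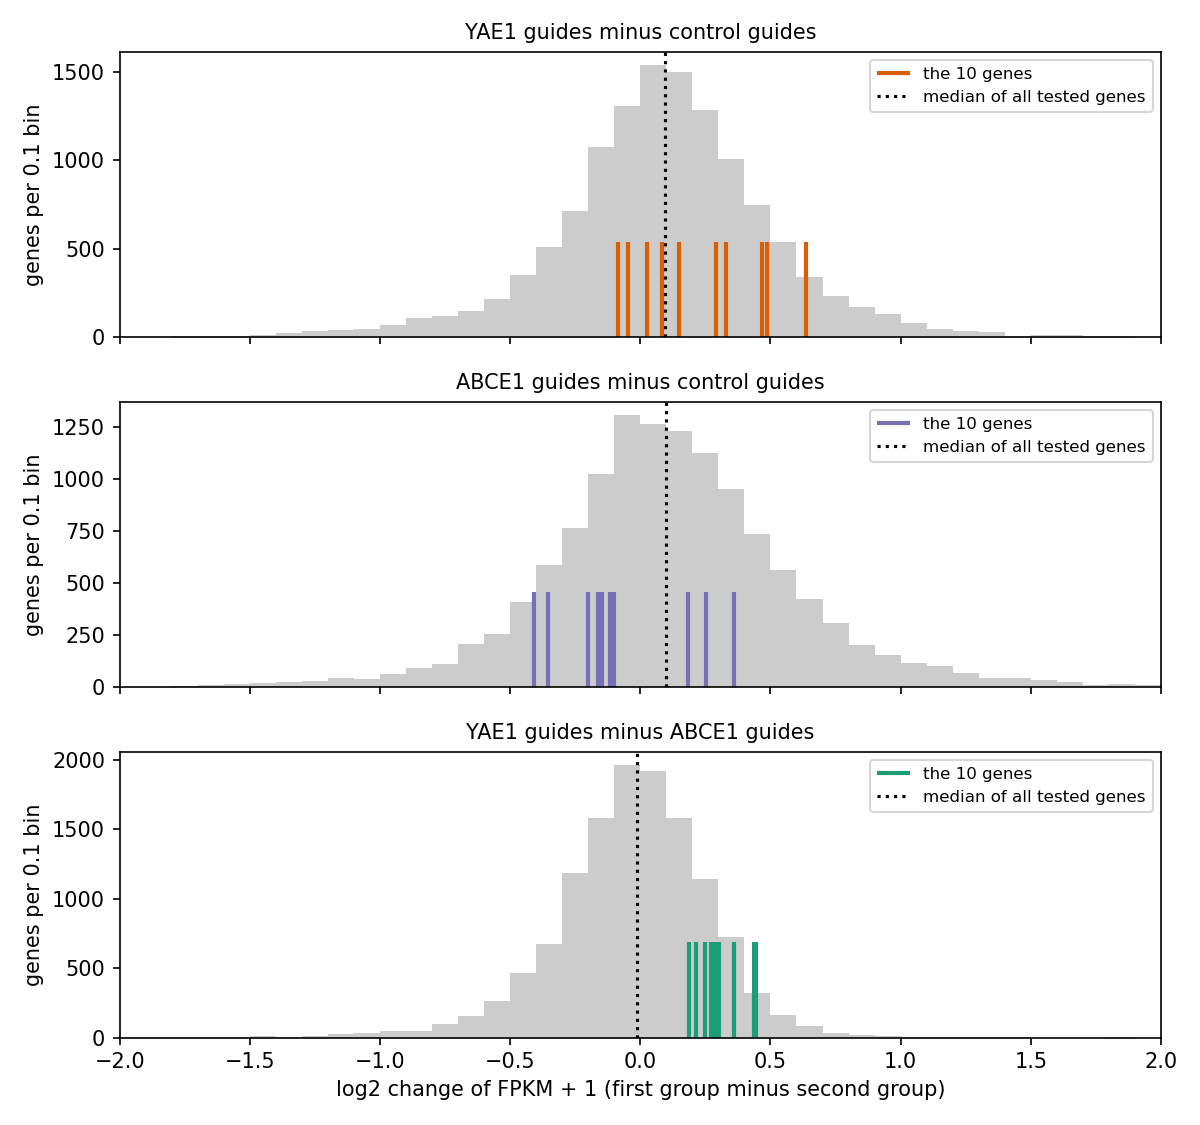
Histograms of the log2 change of all 12578 tested genes (bins of 0.1, shown from -2 to 2) for the 3 comparisons, with a coloured line for each of the 10 genes and a dotted line at the median of all tested genes. The 10 lines are spread over both sides of the median in the first 2 panels and lie together at 0.19 to 0.44, right of the median of -0.01, in the third.

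Among 767 other genes averaging 50 FPKM or more, the 2 whose pattern over the 6 libraries was nearest to the average pattern of the 10 were ENSG00000126247 and ENSG00000108298, named by identifier alone. Likeness was the root mean square difference of gene-centred log2(FPKM + 1) values over 6 libraries, 0.022 for ENSG00000126247 and 0.029 for ENSG00000108298, beside 0.036 for MT-ND4, the nearest of the 10 genes to their own average, and 0.197 for MT-CO1, the farthest. ENSG00000108298 had 689 and 657 FPKM with YAE1 guides, 558 and 563 FPKM with ABCE1 guides, and 596 and 604 FPKM with control guides. Like the average of the 10 it was highest in the YAE1 libraries and lowest in the ABCE1 libraries, which follows from how it was picked.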

How the data were processed

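The authors deposited FPKM values in 1 table, a column for each library. GRCh37 (human) is the build in the submitters' processing notes, although the organism label reads Mus musculus. No aligner, counting program or annotation is named in the sources used here. Per the labels' protocols, libraries were strand-specific, made from 1 µg of total RNA and read as 150 bp pairs.

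Whole read numbers and library totals were worked out from the FPKM steps: 38267 of 38269 genes above 0 came out whole (relative tolerance 1e-12), adding up to 99.4% to 99.5% of the totals. For genes averaging 1 FPKM or more, limma 3.58.1 (R 4.3.3) compared log2(FPKM + 1) values, with 1 mean per group, 6 libraries in 1 fit, eBayes with trend, Benjamini-Hochberg adjustment over 12578 genes and a threshold of 0.05. Both steps were tested on simulated data. Residual degrees of freedom were 3, plus 3.62 from moderation. The 10 genes are always named, with the 2 genes of the nearest pattern; members and lists were chosen with earlier results of these data known. Lists of nuclear-encoded subunits, mitochondrial RNA factors and markers were not used here, since no symbols matched. Alternatives were other pseudocounts, filters and scalings, voom on recovered reads with TMM factors, the compared libraries only, a replicate block and each library left out. Replicates of a group differed by more than counting error.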

Additional observations from a re-analysis of the deposited data

Results flagged for a closer look

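The effect of the guides against control differed between the knockouts for all 10 genes, on the deposited scale and with the filter at 1 FPKM, by a test of the difference itself (YAE1 minus ABCE1 guides, limma). The control means cancel in this difference, so it restates the comparison between the knockouts given above and is no separate result. The differences on the log2 scale were 0.19 for MT-ND1 (adjusted p = 0.046), 0.36 for MT-ND2 (adjusted p = 0.0036), 0.29 for MT-ND3 (adjusted p = 0.017), 0.25 for MT-ND4 (adjusted p = 0.0078) and 0.27 for MT-ND5 (adjusted p = 0.0070), all by limma. They were 0.21 for MT-CYB (adjusted p = 0.023), 0.28 for MT-CO1 (adjusted p = 0.0050), 0.30 for MT-CO2 (adjusted p = 0.0053), 0.44 for MT-CO3 (adjusted p = 0.0025) and 0.44 for MT-ATP6 (adjusted p = 0.0032), again by limma. After quantile normalization 2 of the 10 passed as higher and 1, MT-ND1, as lower, with a median of 0, and with no filter 0 passed. MT-ND1 was also lost with a replicate block (limma adjusted p = 0.068) and with the compared libraries alone (limma adjusted p = 0.082). With a library left out, the calls of MT-ND1, MT-CYB, MT-ND3, MT-ND4, MT-ND5 and MT-CO1 did not hold in every fit. Their differences stayed above 0, from 0.11 to 0.26 for MT-ND1 and from 0.19 to 0.24 for MT-CYB. For MT-ND3 they ran from 0.21 to 0.36, and for MT-ND4 from 0.21 to 0.28. The range was 0.23 to 0.31 for MT-ND5 and 0.27 to 0.29 for MT-CO1. In each gene both YAE1 libraries were above both ABCE1 libraries.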

How the results depend on the processing

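Groups of 2 libraries limit every call, and scaling to the library total limits statements on absolute amounts. All 16 alternatives planned for each comparison were run, and the comparison relative to the mean of the 10 genes was added after the data had been seen. Called higher and lower, the numbers among the 10 genes moved by over 1.5 times as follows. With no filter they were 3 higher for YAE1 guides, 0 higher and 2 lower for ABCE1 guides, and 0 higher for YAE1 minus ABCE1 guides, with fold changes unaltered (38269 genes tested). By quantile normalization they were 3 higher and 2 lower for YAE1 guides (median log2 change 0), 3 lower for ABCE1 guides (median -0.017), and 2 higher and 1 lower between the knockouts (median difference 0). Quantile normalization gives the most abundant genes the value of their rank, so it compares ranks here. Under it the direction turned for MT-CO3 (-0.19) and MT-ND4 (-0.029) with YAE1 guides, and for MT-ND1 (0.086) and MT-ND4 (0.029) with ABCE1 guides. Between the knockouts it turned for MT-ND1 (-0.086) and MT-ND4 (-0.059). Of these, MT-CO3 passed as lower with YAE1 guides (limma adjusted p = 0.00012) and MT-ND1 as higher with ABCE1 guides (limma adjusted p = 0.0051). MT-ND1 passed as lower between the knockouts (limma adjusted p = 0.011), while MT-ND4 did not pass in any comparison. Centring on the median gene gave 1 lower for YAE1 guides (median 0.12; MT-ND1 -0.073 and MT-ND3 -0.012 turned), and 1 higher for ABCE1 guides (median -0.27). Voom gave 2 lower for YAE1 guides (median 0.11; MT-ND1 -0.086 and MT-ND3 -0.026 turned) and a median of -0.26 for ABCE1 guides. Scaling to the other genes gave 1 lower for YAE1 guides (MT-ND1 turned, at -0.0015). The cause of these moves was not tested.

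With 1 library left out, YAE1 guides had 0 to 2 genes lower with a median of 0.18 to 0.26, where MT-ND1 ran from -0.047 without YAE1 replicate 1 to 0.096 without YAE1 replicate 2 (also below 0 without control replicate 1), and MT-ND2 from -0.098 without YAE1 replicate 1 to 0.0028 without YAE1 replicate 2. ABCE1 guides had 1 to 3 higher and 2 to 7 lower, and 4 to 10 genes were higher with YAE1 than with ABCE1 guides (median 0.25 to 0.32). On the scale relative to the mean of the 10 genes, leaving out a library gave 3 to 5 lower for YAE1 guides, 2 to 3 lower for ABCE1 guides, and 1 to 2 higher and 0 to 1 lower between the knockouts. No filter gave 3 lower for YAE1 and 2 lower for ABCE1 guides on that scale, and a pseudocount of 5 FPKM gave 3 lower between the knockouts. Between the knockouts on that scale, MT-ND3 ran from -0.093 to 0.058 (above 0 without ABCE1 replicate 2), MT-CO1 from -0.055 to 0.0057 (above 0 without YAE1 replicate 1) and MT-CO2 from -0.0093 to 0.0068 (above 0 without ABCE1 replicate 2 or YAE1 replicate 1), with none of these 3 genes past the threshold in any of the 6 fits. The lone library of a group was assumed to vary like the others.

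No pairing by the replicate numbers of the titles was seen in the values. Deviations of same-numbered libraries correlated at -0.01 (YAE1 and control), -0.05 (ABCE1 and control) and -0.01 (YAE1 and ABCE1) over 12578 genes. Such correlations cannot exclude that same-numbered libraries were handled together, which is not given. With the replicate number as a block, 2 genes were lower with ABCE1 guides, 6 were higher with YAE1 guides and 9 were higher with YAE1 than with ABCE1 guides. Of the summed FPKM of genes averaging 1 FPKM or more, the 10 genes held 11.6% with YAE1, 9.75% with ABCE1 and 9.82% with control guides, beside 11.4%, 9.56% and 9.67% of all genes.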
